A study of Mus musculus with 12 samples.

Results

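The 9 genes Lck, Fyn, Zap70, Csk, Pag1, Lat, Lcp2, Plcg1 and Themis encode kinases, adaptors and regulators that act directly below the T cell receptor (TCR). They were picked by gene symbol from earlier knowledge of the pathway, with earlier results of these data known. All 9 were found among the 55335 gene rows of the count tables. Thymocytes, the developing T cells of the thymus, came from mice 6 weeks old kept under SPF conditions, either WT or miR-181a/b-1 KO, and were put in DPBS with cycloheximide, which halts ribosomes on the mRNA. The labels name no further allele and no treatment that differs between the genotypes, and no sort into stages. The series' design text names 3 mice per genotype, and each genotype had 3 RNA-seq libraries and 3 libraries of ribosome footprints, the pieces of mRNA that ribosomes shield from nuclease. The labels do not say whether an RNA-seq and a footprint library of the same number came from 1 mouse.

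When a TCR binds its ligand, the Src-family kinase Lck, with Fyn in a partly overlapping role, phosphorylates the CD3 chains. Zap70 docks on those chains and phosphorylates the adaptors LAT and SLP-76 (the product of Lcp2), on which PLCγ1 is recruited and activated. Csk, held at the membrane in part by PAG (the product of Pag1), phosphorylates the inhibitory tyrosine of Src-family kinases, and Themis tunes this signal while thymocytes are positively selected. In the thymus miR-181a is known for raising TCR sensitivity by repressing phosphatases of the pathway.

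The microRNAs of the deleted locus are shown here because the comparison turns on their loss, with the rest of their family for the shared seed. Their mature 5p sequences, from RefSeq on GRCm38.p6, lie on the plus strand of chromosome 1 at chr1:137966468-137966490 for miR-181a-5p and chr1:137966650-137966673 for miR-181b-5p. Capitals mark the seed, bases 2 to 8, which leads the pairing with targets.
mmu-miR-181a-5p: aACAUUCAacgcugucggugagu
mmu-miR-181b-5p: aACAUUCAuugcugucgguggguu
mmu-miR-181c-5p: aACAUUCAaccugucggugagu
mmu-miR-181d-5p: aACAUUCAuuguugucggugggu
The family's 6 genes give 4 distinct mature 5p sequences that share 1 seed. The first pair of these sequences is also encoded by Mir181a-2 and Mir181b-2 on chromosome 2, and miR-181c-5p and miR-181d-5p come from chromosome 8, all outside the deleted locus. Target sites in the 9 transcripts were not analysed here.

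Reads in genes came to 4479182 to 8180286 per RNA-seq library and 4069968 to 17859770 per footprint library, and each library held between 563 and 21540 reads of each of the 9 genes. The T-lineage markers Cd3e, Cd3d, Cd4, Cd8a and Cd8b1 together had 3843 to 4195 CPM (a gene's reads scaled to a common library total, TMM-corrected) over the RNA-seq libraries, so the labelled cell type was visible in all 6. The row of the deleted Mir181a-1 fell in footprints from 148 ± 16.8 CPM in WT to 0.828 ± 0.317 CPM in KO (SD, n = 3; log2 fold change -7.47, edgeR false discovery rate (FDR) 2.24e-05). In RNA-seq it had 2.81 ± 1.62 and 3.27 ± 1.59 CPM (SD, n = 3), which does not check the labels there. RNA-seq directions are therefore those of the libraries labelled KO against those labelled WT.

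The deposited counts, which the authors call adjusted, had a property that comes before any test. Whenever a WT library lay above the WT mean, the KO library of the same number lay below the KO mean, and the reverse. This held for all 27 pairs of library and gene in RNA-seq and for all 27 in footprints, and for 95.9% and 95.6% of pairs over all tested genes. Themis gave the widest example: RNA-seq replicate 3 deviated from its group mean by -19.3% in WT and by 17.6% in KO. Lat went the other way there, at 13.4% in WT and -15.2% in KO. An SD within a group may therefore not measure the spread between mice. Each test is given without and, where the call changes, with the replicate number as a block. A block takes up what same-numbered libraries share, and their deviations were opposite, so it could take up little here. For Lck in footprints the log2 fold change was -0.12 in both fits, with an SE of 0.03 without the block and 0.08 with it. A call lost with the block therefore does not measure a batch shared by same-numbered libraries.

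**Figure D1:**
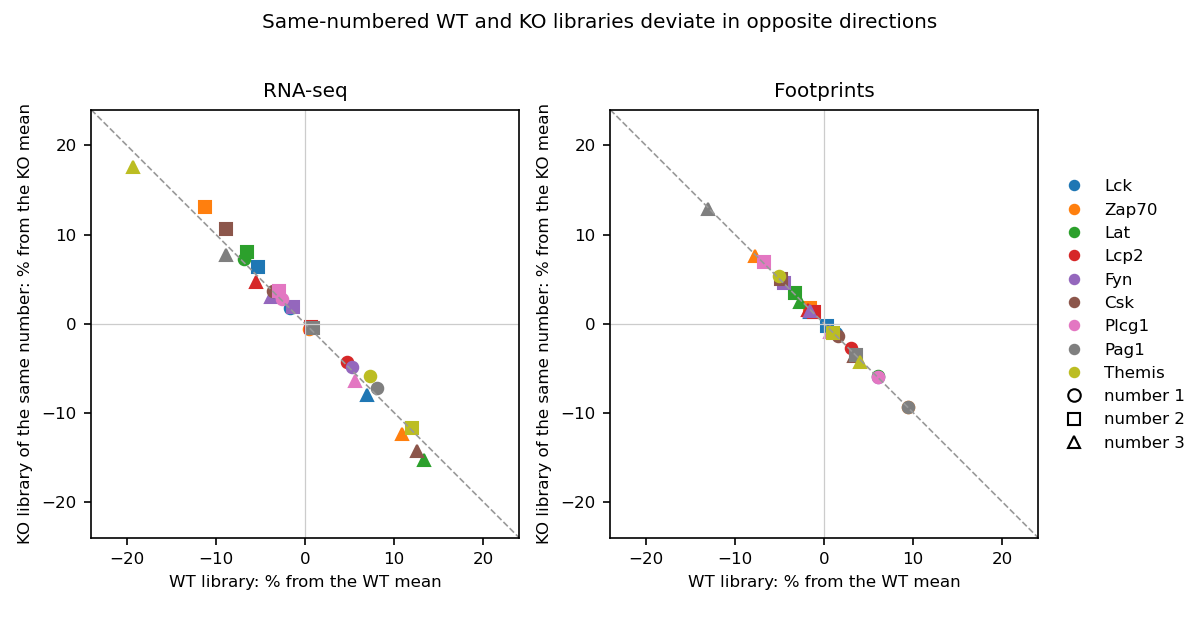
Deviation of CPM from the group mean, in percent, for the 9 genes, with WT libraries on the x axis and KO libraries of equal number on the y axis; colour is the gene, symbol shape the replicate number, and the dashed line marks equal and opposite deviations. All points lie in the 2 quadrants of opposite sign, from Themis replicate 3 at -19.3% and 17.6% in RNA-seq to Lat replicate 3 at 13.4% and -15.2%.

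In footprints of KO thymocytes Themis and Lcp2 rose and Lck fell, by 17%, 13.5% and -8.12% of the WT mean, and the other 6 genes did not pass the test. These 3 calls among 9 genes compare with 17.6% of all 13509 genes called by edgeR at an FDR under 0.05, of which 9.25% were higher and 8.34% lower in KO. The median SE in footprints was 0.056 for the 9 and 0.095 for all genes, so a change of equal size was more readily called among the 9. For 62% of all genes the footprint change was no larger than the largest of the 9. In RNA-seq 0 of the 9 genes were called, against 6.91% of 13652 genes. The median log2 fold change of the 9 was 0.12 in footprints and -0.15 in RNA-seq, beside -0.01 and -5e-04 over all genes tested. With the replicate number as a block 0 of the 9 were called in either assay, against 3.02% of all genes in footprints and 0.806% in RNA-seq. At an unadjusted p under 0.05 that edgeR fit gave 1 of the 9 in footprints, Themis, against 16.2% of all genes, and 0 in RNA-seq against 9.71%.

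**Figure D2:**
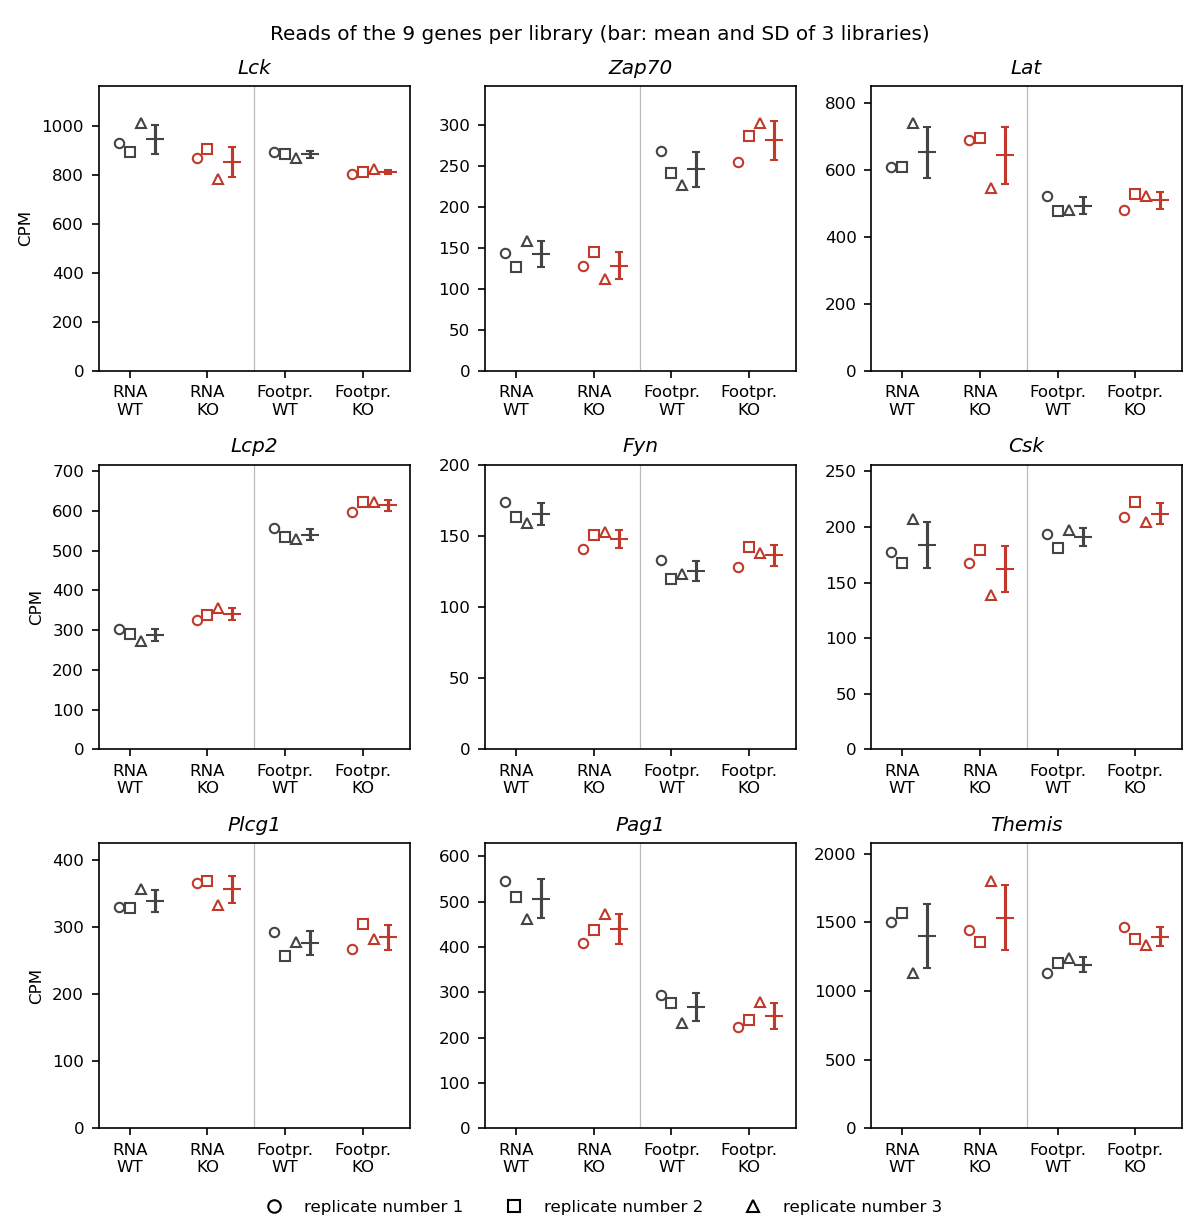
CPM of each of the 9 genes in each library (y axis, from 0) by assay and genotype; symbols are libraries by replicate number, and the bars at the side are the mean and SD of 3 libraries. In footprints the KO libraries of Themis, Lcp2 and Csk lie above all WT libraries and those of Lck below, while the other 5 genes overlap.

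Lck is the Src-family kinase that starts the signal. In footprints it had 895, 886 and 869 CPM in WT and 803, 809.7 and 822 CPM in KO. The KO libraries were all below the WT libraries, with coefficients of variation of 1.49% in WT and 1.18% in KO. Same-numbered libraries deviated oppositely here too, so these coefficients may not measure the spread between mice. Lck fell by 0.12 on the log2 scale (SE 0.03; edgeR FDR 0.0457), from 883 ± 13.2 to 812 ± 9.56 CPM (SD, n = 3). The call is a borderline one: it was lost with the block (FDR 0.519), with DESeq2, with another size scaling, without the low-count filter, and without any 1 of the 6 libraries, at adjusted p values of 0.0544 to 0.519. In RNA-seq Lck had 929, 895 and 1011 CPM in libraries labelled WT and 867, 907 and 784 CPM in those labelled KO. These groups overlapped through WT replicate 2 and KO replicate 2, and the log2 fold change of -0.15 (95% interval -0.33 to 0.04) was not called (edgeR FDR 0.303).

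Fyn, the second Src-family kinase of thymocytes, had differences of opposite sign in the 2 assays, neither of them called. In RNA-seq it had 174, 163 and 159 CPM in libraries labelled WT and 141, 151 and 153 CPM in those labelled KO, with no overlap. Its log2 fold change there was -0.16 (SE 0.06; edgeR FDR 0.182). In footprints it had 133, 119.8 and 123 CPM in WT and 128, 143 and 138 CPM in KO. WT replicate 1 lay above KO replicate 1, and the log2 fold change of 0.12 (95% interval -0.02 to 0.26) was not called (edgeR FDR 0.218).

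Zap70 carries the signal from the CD3 chains to the adaptors. Its RNA-seq levels were 143, 127 and 158 CPM in libraries labelled WT and 127, 145 and 112 CPM in those labelled KO, and the groups overlapped (log2 fold change -0.16, edgeR FDR 0.471). That value ran from -0.26 without KO replicate 2 to -0.08 without KO replicate 3. In footprints it had 269, 242 and 227 CPM in WT and 255, 286 and 302 CPM in KO. Only WT replicate 1 reached into the KO range, and the log2 fold change of 0.19 (95% interval -0.01 to 0.39) was not called (edgeR FDR 0.177). That interval reaches beyond the largest footprint change measured among the 9 genes, 0.23 for Themis.

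Csk and Pag1 form the arm that restrains Src-family kinases. Csk had 194, 181 and 197 CPM of footprints in WT and 209, 223 and 204 CPM in KO. All KO libraries were above all WT libraries, yet the log2 fold change of 0.16 (SE 0.05) did not pass the threshold (edgeR FDR 0.078). In RNA-seq the sign was negative, at 184 ± 20.6 CPM in libraries labelled WT and 162 ± 20.9 CPM in those labelled KO (SD, n = 3; log2 fold change -0.19, edgeR FDR 0.41), with overlap, and the size was lower without replicate 3 of either genotype, at -0.09 each.

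Pag1, the membrane anchor of Csk, had RNA-seq levels of 547, 511 and 461 CPM under the label WT and of 408, 438 and 474 CPM under the label KO. The lowest WT library lay below the highest KO library, both of number 3. Its log2 fold change was -0.20 (95% interval -0.41 to 0.01; edgeR FDR 0.22). In footprints it had 293, 277 and 233 CPM in WT and 224, 239 and 279 CPM in KO, again with number 3 crossing over (log2 fold change -0.12, edgeR FDR 0.488, and from -0.22 without WT replicate 3 to -0.05 without KO replicate 1). With Lck, it was the other gene of the 9 whose difference was negative in both assays and under each alternative tried.

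Lat and Plcg1, the scaffold and the lipase recruited to it, stayed closest to zero. Footprints of Lat averaged 492 ± 25.7 CPM for WT against 508 ± 25.9 CPM for KO (SD, n = 3), a log2 fold change of 0.05 (95% interval -0.09 to 0.18; edgeR FDR 0.626). In RNA-seq Lat had 607, 609 and 739 CPM in libraries labelled WT and 689, 694 and 545 CPM in those labelled KO. Number 3 was the highest of the WT and the lowest of the KO libraries, and the difference of -0.02 turned to 0.08 without either of them. Plcg1 had 276 ± 17.8 and 285 ± 18.5 CPM in footprints (log2 fold change 0.04, 95% interval -0.12 to 0.21) and 339 ± 16.4 and 356 ± 20 CPM in RNA-seq (0.07, 95% interval -0.09 to 0.23), SD and n = 3 throughout. For both genes these intervals include a rise as large as the fall called in Lck (-0.1225), so the data do not show that they were unchanged. Without the block a fall of that size lay outside them, narrowly for Plcg1 in footprints (lower end -0.1166). With the block such a fall lay inside. The lower ends were then -0.15 for Lat in footprints, -0.17 for Plcg1 in footprints and -0.22 for Plcg1 in RNA-seq. The Lat interval in RNA-seq, -0.32 to 0.28 without the block, included both the rise and the fall.

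Lcp2 encodes SLP-76, which assembles with LAT. It was the 1 gene of the 9 with every KO library above every WT library in both assays. Of all tested genes 15.5% were so separated in RNA-seq and 18.5% in footprints, and the share in both assays was not counted. In RNA-seq it had 302, 290.4 and 273 CPM in libraries labelled WT and 326, 339 and 356 CPM in those labelled KO, a log2 fold change of 0.24 (SE 0.06) that was not called (edgeR FDR 0.0757). In footprints it had 557, 534 and 531 CPM in WT and 597, 622 and 623 CPM in KO. Lcp2 rose there by 0.18 on the log2 scale (SE 0.04; edgeR FDR 0.0211), from 541 ± 14.1 to 614 ± 14.6 CPM (SD, n = 3). The footprint call was lost with the block (FDR 0.317) and in 6 of 10 alternatives, 4 of them the omission of replicate 2 or 3 of either genotype, over adjusted p values of 0.0238 to 0.317.

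Themis, which sets the threshold of selection, rose most of the 9 in footprints. It had 1133, 1205 and 1240.1 CPM in WT and 1469, 1381 and 1335 CPM in KO, with no overlap. The rise was 0.23 on the log2 scale (SE 0.05; edgeR FDR 0.0326), from 1193 ± 54.9 to 1395 ± 68.4 CPM (SD, n = 3). It was called by DESeq2 too, and lost with the block (FDR 0.243) and without any 1 library other than KO replicate 3, over adjusted p values of 0.011 to 0.243. In RNA-seq the libraries labelled WT had 1502, 1568 and 1130.25 CPM and those labelled KO 1445, 1354 and 1805 CPM. The groups overlapped broadly, with a log2 fold change of 0.13 (95% interval -0.24 to 0.51; edgeR FDR 0.663) that came to -0.0043 without KO replicate 3 and 3e-04 without WT replicate 3.

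**Figure D3:**
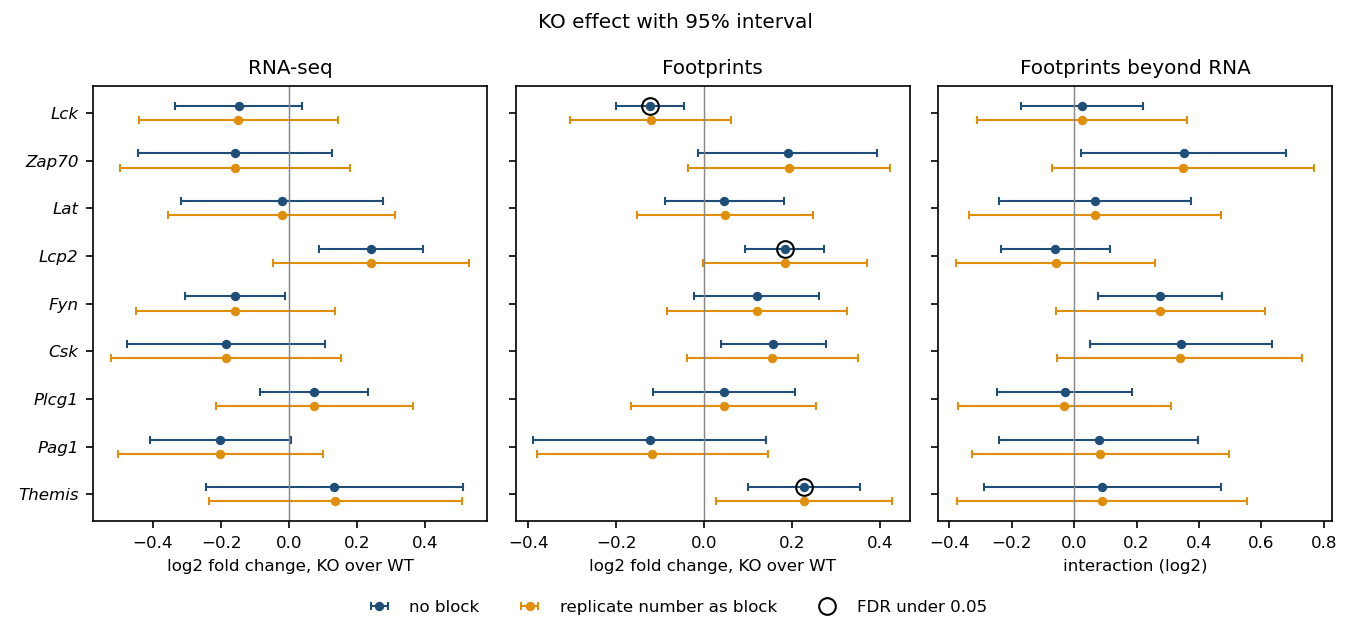
Log2 fold change of KO over WT with its 95% interval (x axis) for each of the 9 genes in RNA-seq and in footprints, and the interaction of genotype and assay at the right; blue points have no block, orange points have the replicate number as a block, and black rings mark an FDR under 0.05. The 3 rings are in footprints without the block, for Lck (-0.12), Lcp2 (0.18) and Themis (0.23).

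Group separation added little beyond the tests. The 3 KO libraries did not overlap the 3 WT libraries for 4 of 9 genes in footprints (Themis, Lcp2 and Csk above, Lck below), where 38.1% of all tested genes did not overlap, 18.5% above and 19.6% below. In RNA-seq this was so for 2 of 9 (Lcp2 above and Fyn below), where 30.9% of all tested genes did not, 15.5% above and 15.4% below. At an unadjusted p under 0.05, edgeR gave 2 of the 9 genes in RNA-seq against 23.8% of all genes, and 4 in footprints against 33.1%. DESeq2 called 0 of the 9 in RNA-seq, against 532 of the 13652 genes fitted. In footprints it called 2, Lcp2 and Themis, against 1248 of the 13509 genes fitted. In the authors' deposited table for footprints Lcp2 (log2 fold change 0.18, adjusted p 0.012) and Themis (0.22, 0.00347) are also marked as significantly higher and Lck (-0.12, adjusted p 0.073) is not. That footprint table marks 711 of its 11369 genes as higher and 498 as lower. The authors' deposited table for RNA-seq marks no gene of the 9, and 327 of its 13301 genes as higher and 221 as lower.

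Levels of cell-stage markers moved beside these footprint results. The 5 T-lineage markers summed to 7200 to 7947 CPM in WT and 8682 to 9601 CPM in KO footprints, where Cd4 was the 1 of 5 called, as a rise. The 5 markers of double-positive thymocytes, the CD4+CD8+ stage at which selection occurs (such as Rag1, Rag2 and Ptcra), summed to 11256 to 11975 CPM in WT and 9452 to 10027 CPM in KO, with Rag1 and Ptcra called as falls (edgeR FDR 0.00866 and 0.0293, with the block 0.116 and 0.155). The 5 markers of mature thymocytes summed to 524 to 558 and 567 to 606 CPM in WT and KO footprints. In RNA-seq the double-positive sum overlapped, at 8813 to 10136 and 7958 to 8928 CPM. The 6 lists of B, myeloid, dendritic, erythroid, epithelial and stromal markers, 22 genes in all and none of them without reads, each summed to between 21.1 and 200.4 CPM in any footprint library, with 2 genes called higher and 3 lower. Of these marker calls in footprints, Cd4 and the B cell marker Cd79b (edgeR FDR 0.0466 with the block) still passed with the block. The part of cell composition in the differences of the 9 genes was not tested. In bulk libraries fewer cells of a type and less RNA per cell cannot be told apart.

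The change in translation, meaning the footprint change beyond the RNA change, was called for 0 of the 9 genes (edgeR interaction), against 0.211% of 11854 genes. DESeq2 also gave 0 of the 9, against 56 calls over all genes. At an unadjusted p under 0.05 the edgeR interaction gave 3 of 9, against 14% of all genes. These were Fyn, Csk and Zap70, whose differences were negative in RNA-seq and positive in footprints, as was the smaller pair of Lat. Their interactions were 0.28 for Fyn (SE 0.09; edgeR FDR 0.22), 0.34 for Csk (SE 0.13; FDR 0.28) and 0.35 for Zap70 (SE 0.15; FDR 0.32). For the 3 genes called in footprints the interaction was smaller: 0.03 for Lck (95% interval -0.17 to 0.22), -0.06 for Lcp2 (-0.23 to 0.12) and 0.09 for Themis (-0.29 to 0.47). The block can be set in either of 2 ways here. Blocking on the library number inside each assay gave 0 of the 9 at an FDR under 0.05, against 0.0169% of all genes, and 0 of the 9 at an unadjusted p under 0.05 in edgeR, against 3.28%. Blocking on genotype and number across the assays also gave 0 of the 9 at an FDR under 0.05, against 0.143% of all genes, but 2 of the 9, Fyn and Csk, at an unadjusted p under 0.05 in edgeR, against 15%.

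The footprint level relative to the RNA level in WT, each gene against its own RNA, ranged more widely over the 9 genes than any of them differed between genotypes. Lcp2 had 1.87 times as many CPM in footprints as in RNA-seq (log2 ratio 0.91, SE 0.05), at the 80.4th percentile of 11854 genes. Zap70 followed with 1.72 times (log2 ratio 0.78, SE 0.12). Csk (0.05), Lck (-0.10) and Themis (-0.23) were in the middle, near the median of all genes of -0.20. Plcg1 (-0.29), Fyn (-0.40) and Lat (-0.40) came below. Pag1 was lowest, with 0.529 times (log2 ratio -0.92, SE 0.12), at the 29th percentile. Neighbours in this order differed by less than the SE of their difference for Lcp2 and Zap70, for Lck and Themis, for Themis and Plcg1, and for Fyn and Lat. All 9 stayed within the range from the 10th to the 90th percentile of genes, -2.03 to 1.42. Without replicate 3 the log2 ratios of Zap70 (0.92), Lat (-0.28), Themis (-0.39) and Lck (-0.03) moved by more than their SE, and Zap70 then lay above Lcp2 (0.88). The ratio also depends on how much of each transcript is coding, which was not measured. In KO the log2 ratio of Zap70 was 1.13, of Csk 0.39 and of Fyn -0.12, the largest shifts of the 9, and those of the interactions above.

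**Figure D4:**
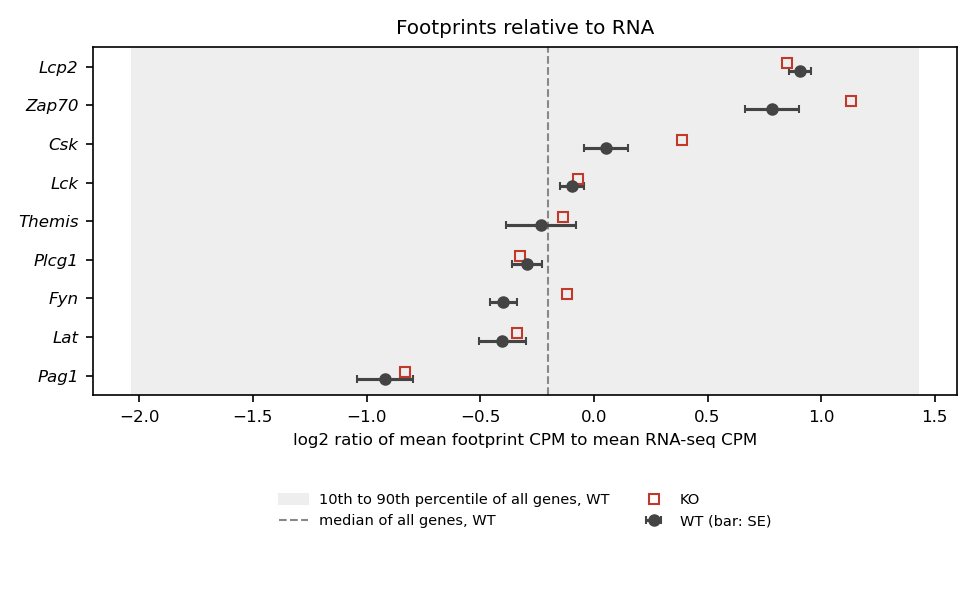
Log2 ratio of mean footprint CPM to mean RNA-seq CPM (x axis) for each of the 9 genes, in WT (filled circles, bar 1 SE) and KO (open squares); the grey band spans the 10th to the 90th percentile of 11854 genes in WT and the dashed line is their median of -0.20. Lcp2 (0.91) and Zap70 (0.78) lie highest and Pag1 (-0.92) lowest in WT.

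Over the 12 libraries, with log2 CPM centred within each assay, Lck and Themis varied most in opposition (Pearson's r = -0.92), followed by Lck and Lcp2 (-0.84). Zap70 and Csk varied most alike (0.81), then Csk and Lat (0.78). Among 8100 genes of average log2 CPM 3 or more, the gene most like Themis was Ndfip1 and the gene most like Lck was Qars, at r = 0.99 each. By the same measure Csk was most like Gnas and Lcp2 most like Card6 (0.99 each), Pag1 like H1f0 and Zap70 like Rhog (0.98 each), Lat like Idh3b (0.97), and Plcg1 like Zgpat and Fyn like Ilk (0.96 each). These values describe 12 libraries whose deviations are tied in opposite pairs.

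The wider pathway was read from 4 lists, 49 genes in all, chosen with earlier results of these data known. Their shares of calls are therefore a description and not a test of the pathway. In footprints edgeR called 13 of 49 as higher and 3 as lower in KO, which is 32.7% beside the 17.6% of all genes, with a median log2 fold change of 0.14. With the block 2 were called, Cd4 and Ptpn22, which is 4.08% beside 3.02% of all genes. Of 48 tested in RNA-seq 2 were called higher and 1 lower by edgeR, a share of 6.25% that is near the 6.91% of all genes, with a median of 0.02. Without the block 17 of the 48 had an unadjusted p under 0.05 in edgeR, a larger share than the 23.8% of all genes. In footprints 28 of the 49 did, a larger share than the 33.1% of all genes. With the block 0 of the 48 were called in RNA-seq, beside 0.806% of all genes. By list, the footprint calls were 2 higher of 8 kinases, 6 higher of 22 adaptors and exchange factors, 4 higher and 3 lower of 12 negative regulators and lipid enzymes, and 1 higher of 7 genes of the TCR-CD3 complex and coreceptors.

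Cd4, the coreceptor that brings Lck to the receptor, rose in footprints from 1953 to 2902 CPM on average (log2 fold change 0.57, edgeR FDR 0.00335, with the block 0.0121). Its RNA-seq log2 fold change was 0.19 (edgeR FDR 0.0685). Ptpn22, a phosphatase that acts on Lck and Zap70, rose in footprints by 0.42 on the log2 scale (edgeR FDR 0.000769, with the block 0.028). In RNA-seq its rise of 0.50 had an edgeR FDR of 0.0164, and 0.161 with the block. Against these, the called changes of the 9 genes were between 0.12 and 0.23 in size.

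The other named genes of the lists lost their calls with the block. Syk, the kinase related to Zap70, rose in footprints by 0.81 (edgeR FDR 0.045, with the block 0.0582), from 33.7 to 58.7 CPM on average. Its RNA-seq log2 fold change was 0.93 (edgeR FDR 0.105). Unc119, an activator of Lck and Fyn, rose in footprints by 0.78 (edgeR FDR 0.0215, with the block 0.232) at a low level of 2.6 to 4.23 CPM. The sign was negative in RNA-seq, at 5.05 CPM in WT and 4.65 CPM in KO (log2 fold change -0.14, edgeR FDR 0.695). Ubash3b, a phosphatase that acts on Zap70, fell by 0.63 on the log2 scale in RNA-seq (edgeR FDR 0.0215, with the block 0.316) and by 0.47 in footprints (FDR 0.0153, with the block 0.284).

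**Figure D5:**
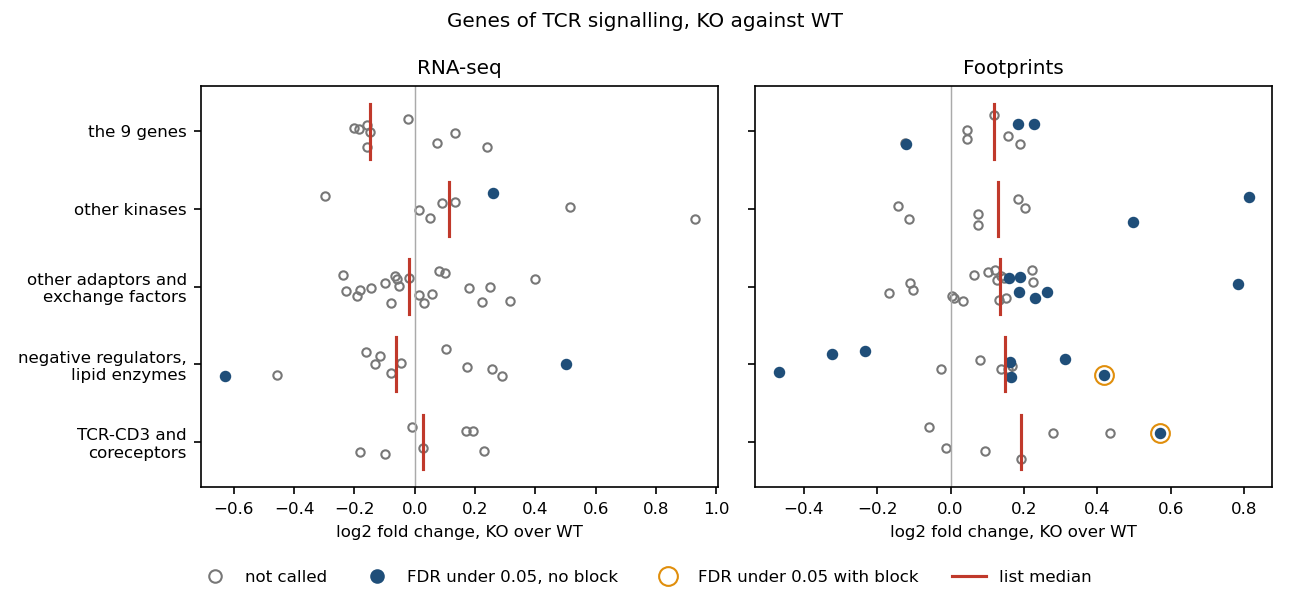
Log2 fold change of KO over WT (x axis) in RNA-seq and footprints for the 9 genes and the 4 lists of other TCR signalling genes (rows, points spread vertically for legibility); filled points have an FDR under 0.05 without the block, orange rings also with it, and red lines are list medians. The 2 rings, Ptpn22 (0.42) and Cd4 (0.57), are in footprints, and the called genes of the 9 lie nearer to 0.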

How the data were processed

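Per the submitters' processing notes the tools were FastQC, Bowtie2 2.5.1, STAR 2.7.10a, HTSeq 2.0.3 and DESeq2 1.40.2. For the build, annotation and strandedness, nothing was given in the sources used here. Deposited by the authors were whole-number read counts per Ensembl gene, named as adjusted without saying how, and their own KO against WT comparison per assay; its 12 columns of per-library values were not used. Rows of reads outside genes, ambiguous or with several alignments stayed out of library sizes; 27% to 28.5% of RNA-seq and 72.3% to 73.1% of footprint reads lay in genes. Counts were fitted with edgeR 4.0.16 in R 4.3.3 over all genes (trimmed mean of M-values, TMM, filterByExpr with minimum count 10, quasi-likelihood test of genotype per assay, interaction over 12 libraries with TMM within each assay, Benjamini-Hochberg FDR under 0.05). CPM use the TMM-scaled totals; SE is the log2 fold change divided by the root of F, and intervals are from the t distribution of the fit. The fits were also run on simulated data, for which no setting or result is given here. That run is therefore no check of the FDRs in these libraries, where same-numbered WT and KO libraries deviated oppositely. Depth differed between libraries, and its effect on the precision was not tested.

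The 9 genes, the 4 pathway lists and the marker lists were chosen with earlier results of these data known. Beyond the 9, the text names pathway genes called with the block, the 3 largest calls per assay, Mir181a-1 and the gene most like a member; a gene that this rule also names is not reported here. Alternatives were RLE factors, no low-count filter, DESeq2 1.42.0, replicate blocks and the omission of each library. Transcript lengths were not used, so levels were not compared between genes.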

Additional observations from a re-analysis of the deposited data

How the results depend on the processing

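The replicate number as a block gave 110 calls over all genes for RNA (943 without it), 408 for footprints (2376) and, set within each assay, 2 for translation (25); pairing by genotype and number across assays gave 17. Same-numbered WT and KO libraries deviated oppositely (correlation across genes -0.99 to -0.98 in RNA-seq and -0.99 in footprints), other pairs at 0.10 to 0.75 and 0.40 to 0.64. DESeq2 gave 532, 1248 and 56 calls; the cause was not tested. Omitting each library in turn gave 215 to 323, 1035 to 1554 and 6 to 24 calls, where fewer samples lower them. Among the 9 genes, 0 of 90 alternative values in RNA-seq and 0 of 153 for translation were called; in footprints 8 of 90 were, all of Lcp2 or Themis. Signs turned only without 1 library, in values that were not called: from -0.0834 to 0.0801 for Lat and -0.0043 to 0.222 for Themis in RNA-seq, -0.0119 to 0.0963 for Plcg1 in footprints, and for translation -0.036 to 0.0727 for Lck, -0.0453 to 0.127 for Lat, -0.0856 to 0.0166 for Plcg1 and -0.0124 to 0.148 for Pag1. Omitting 1 library also moved uncalled values of the same sign by over 1.5 times, among them Lck (-0.198 to -0.0971) and Plcg1 (0.0431 to 0.114) in RNA-seq, Lat (0.0171 to 0.0946) and Fyn (0.0779 to 0.172) in footprints, and the interactions of Lcp2 (-0.0994 to -0.0235) and Themis (0.0031 to 0.222). Each of the 9 genes had 563 reads or more per library, and 3 libraries per group limit the precision.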
